A study of Mus musculus with 8 samples.

Results

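The Cyp2 genes encode a large family of drug-metabolising cytochromes P450 of mouse liver, and 45 of the 19937 genes measured here belong to it. Members were taken from probe sets with exactly 1 gene symbol, where the symbol is Cyp2 followed directly by a letter. Each of the 45 genes had 1 such probe set, and all 45 matched a RefSeq gene by gene ID. They fall into 14 subfamilies: 13 genes of Cyp2c, 10 of Cyp2d, 6 of Cyp2j, 5 of Cyp2b, 2 of Cyp2a, and 1 each of Cyp2ab, Cyp2e, Cyp2f, Cyp2g, Cyp2r, Cyp2s, Cyp2t, Cyp2u and Cyp2w. RefSeq annotates 2 of them, Cyp2d13 and Cyp2d37-ps, as pseudogenes. A further 2 probe sets carried several Cyp2 symbols, so that Cyp2a4, Cyp2a5, Cyp2c40 and Cyp2c69 were not analysed here.

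RNA came from primary hepatocytes, the parenchymal cells of the liver, of male BALB/c mice, and was measured on 8 whole-transcript arrays in 4 groups of 2. Control cells were HO1+/+ with a scrambled shRNA, HO1 knockout cells were HO1-/- with the scrambled shRNA, HO2 knockdown cells were HO1+/+ with an shRNA against HO2, and combined cells were HO1-/- with the HO2 shRNA. Every group, control included, was transduced with lentivirus, selected with puromycin for 3 days from 24 h after transduction, pulsed with dexamethasone (1 µM, 30 min) and collected after a further 28 h. The HO2 shRNA is a single hairpin, and the labels call the 2 arrays of a group biological replicates without naming separate animals, so that p-values measure the spread between these arrays only. HO1 genotype and cell preparation cannot be told apart. By its title, the series asks about carbon monoxide metabolism and the circadian clock.

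Cytochromes P450 are heme proteins of the endoplasmic reticulum that insert an oxygen atom into drugs, steroids, bile acids, retinoids and fatty acids. They receive electrons from P450 oxidoreductase, which also serves the heme oxygenases HO1 and HO2, the enzymes that break down heme to carbon monoxide, biliverdin and iron. Many hepatic Cyp2 genes are switched on by the nuclear receptors CAR and PXR together with liver factors such as HNF4A, and several differ between male and female mouse liver. Cultured hepatocytes are known to lose much of their P450 expression.

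Signals below are log2 RMA values of a probe set on 1 array, and a log2 fold change (a difference of 2 group means) is given with the moderated standard error (SE) of limma. A gene is called, or said to have risen or fallen, where limma's p-value adjusted by Benjamini-Hochberg over all 19937 genes was under 0.05. Array medians lay between 7.61 and 7.70, and the correlation over all genes was 0.997 to 0.999 between replicates. Hmox2, the gene for HO2, had mean signals of 11.49 in control and 8.35 in HO2 knockdown, and of 11.60 in HO1 knockout and 9.29 in combined arrays. Hmox1, the gene for HO1, was not lower on the arrays labelled HO1-/-: its means were 11.43 in control and 11.97 in HO1 knockout, and 11.56 in HO2 knockdown and 12.44 in combined. Whether its probe set lies in the deleted part of the gene was not tested, so directions between the genotypes rest on the labels. Hepatocyte markers (9 measured of 10 listed) had per-array mean signals between 12.12 and 13.28, with Alb between 13.32 and 13.99, while the list of 12 Kupffer cell and macrophage markers lay between 7.48 and 7.60 on the HO1+/+ arrays and between 9.42 and 9.68 on the arrays labelled HO1-/-. Microarray signals have no true zero. The 1027 olfactory receptor genes, which hepatocytes are not known to express, had a median signal of 5.18 and a 95th percentile of 7.08, which serves below as the reference for background.

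Mean signals of 24 members exceeded this reference in at least 1 group, and those of 16 did so in all groups. The brightest members were Cyp2d22 (10.74 to 11.69 over the 8 arrays), Cyp2j6 (10.42 to 11.03), Cyp2c70 (10.00 to 11.55) and Cyp2d26 (9.27 to 11.01). The other 21 members stayed at or below the reference in every group. Among these was Cyp2e1, the ethanol-oxidising P450 of pericentral hepatocytes, with 6.15 to 6.98. Cyp2 genes lie in clusters of closely related copies, and how much of a signal comes from a near-identical copy was not tested.

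HO2 shRNA in HO1+/+ cells was accompanied by higher signals of 22 Cyp2 genes and lower signals of 6, of 45. The largest increases were those of Cyp2b10 (10.4-fold), Cyp2a12 (6.60-fold), Cyp2j5 (5.18-fold), Cyp2c39 (4.80-fold) and Cyp2d9 (3.80-fold), so that the leading genes came from 5 subfamilies. Control signals of Cyp2a12, Cyp2c39 and Cyp2d9 lay below the background reference. Here and in the later comparisons, folds from such a low level are ratios of measured signals and not exact changes of RNA, and their order is that of the signals. Over all genes tested, 16.5% were called higher and 16.7% lower in this comparison. The median log2 fold change was 0.25 over the 45 members and -0.07 over all genes. The arrays of both groups did not overlap for 36 members (80.0%), against 65.4% of all genes. Of the hepatocyte markers 8 of 9 were also higher and 1 lower in this comparison (median 0.84), and all 7 measured markers of dividing cells were lower (median -1.46). Fewer cells of a type and less RNA per cell cannot be told apart in such bulk samples, and the part of either list in the Cyp2 changes was not tested. Macrophage markers moved little here, with 0 of 12 higher and 1 lower by limma (0 and 2 at an unadjusted p under 0.05) and a median of -0.01. Of 8 endothelial markers 3 were higher, and of 10 stellate cell and fibroblast markers 4 were higher and 2 lower.

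The starting regions of 4 of these 5 genes are shown, those with the largest increase in Cyp2b, Cyp2a, Cyp2j and Cyp2d, while Cyp2c is shown further on by shorter windows of several genes. They are the 150 bases before the annotated start in RefSeq on GRCm38.p6, 5′ to 3′. Capitals mark matches to TATAAA (the letters of the TATA box), TATTTAC (a form of the FOXA site) or TTATGCAA (close to C/EBP sites), each searched on both strands and at any position.
Cyp2b10, chr7:25897508-25897657, plus strand: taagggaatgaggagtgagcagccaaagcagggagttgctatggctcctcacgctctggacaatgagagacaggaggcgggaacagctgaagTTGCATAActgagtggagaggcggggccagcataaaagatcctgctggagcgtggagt
Cyp2a12, chr7:27028940-27029089, plus strand: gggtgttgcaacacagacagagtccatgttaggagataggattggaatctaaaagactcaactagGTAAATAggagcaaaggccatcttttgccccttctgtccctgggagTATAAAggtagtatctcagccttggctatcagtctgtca
Cyp2j5, chr4:96664120-96664269, minus strand: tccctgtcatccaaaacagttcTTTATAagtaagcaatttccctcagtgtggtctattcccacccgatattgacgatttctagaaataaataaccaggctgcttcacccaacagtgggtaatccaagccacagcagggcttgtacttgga
Cyp2d9, chr15:82452227-82452376, plus strand: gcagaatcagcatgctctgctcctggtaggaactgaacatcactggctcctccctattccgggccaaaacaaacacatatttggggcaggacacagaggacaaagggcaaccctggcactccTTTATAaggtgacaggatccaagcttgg
Cyp2b10 held TTGCATAA, the reverse complement of TTATGCAA, and no TATAAA. TTATGCAA was present in 3 of the 36 Cyp2 genes with a promoter entry, all of the Cyp2b subfamily (Cyp2b10, Cyp2b19 and Cyp2b23), and in 0.695% of all 32817 windows of 250 bases before a start. Of those 3 genes only Cyp2b10 was called in any of the 6 comparisons. TATAAA was found in 16 of 36, against 12.4% of all windows, and in all 5 Cyp2d genes with an entry. Its distance before the start varied, so a match need not be a working TATA box. It was 39 bases in Cyp2a12 and 28 in Cyp2d9, but 128 in Cyp2j5, 162 in Cyp2c65, 150 in Cyp2c66 and 91 in Cyp2d40. The D-box sequences TTATGTAA and TTACGTAA are sites of the clock-controlled factors DBP, TEF and HLF. Exact matches were found in 0 of 36, against 0.817% and 0.113% of all windows. Both shares are so low that 0 of 36 does not show fewer matches in Cyp2 genes. TTATGCAA, found in 3 of 36, resembles these D-box sequences as well as C/EBP sites. The E-box CACGTG was found in 1 of 36 (Cyp2j6), against 6.02% of all windows.

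Cyp2b10, the classical phenobarbital-inducible P450 and a target of CAR, had signals of 7.76 and 7.85 in control, 7.90 and 8.03 in HO1 knockout, 11.17 and 11.19 in HO2 knockdown, and 10.62 and 10.49 in combined arrays. All 4 arrays with HO2 shRNA lay above all 4 without it, and the combined arrays lay between HO2 knockdown and the rest. The change with HO2 shRNA was 3.38 (SE 0.075, adjusted p = 5.42e-14) in HO1+/+ and 2.59 (adjusted p = 1.07e-12) in HO1-/- cells. None of the other 4 Cyp2b genes was called in any comparison: over the 8 arrays Cyp2b9 lay between 6.61 and 7.18, Cyp2b13 between 4.84 and 5.16, Cyp2b19 between 6.32 and 6.62 and Cyp2b23 between 6.79 and 7.24. Cyp2b9 and Cyp2b13 are known as female-predominant in mouse liver, and the mice here were male.

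Cyp2a12, a hydroxylase of steroids and bile acids, had signals of 6.00 and 6.11 in control, 6.11 and 5.96 in HO1 knockout, 8.80 and 8.75 in HO2 knockdown, and 8.90 and 8.85 in combined arrays. It was thus below the background reference on every array without HO2 shRNA and above it on every array with it. Its change was 2.72 (SE 0.0979, adjusted p = 1.09e-11) in HO1+/+ and 2.84 (adjusted p = 6.74e-12) in HO1-/- cells. Cyp2a22, the other member of the subfamily, had 4.82 and 4.67 in control, 4.42 and 4.35 in HO1 knockout, 4.51 and 4.49 in HO2 knockdown, and 4.50 and 4.55 in combined arrays. Its control arrays were the highest, and all arrays lay under the median of the olfactory receptors. Its fall by 0.25 in HO2 knockdown did not hold without control replicate 1 (adjusted p = 0.187) or without either HO2 knockdown array (0.088 and 0.105).

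**Figure D1:**
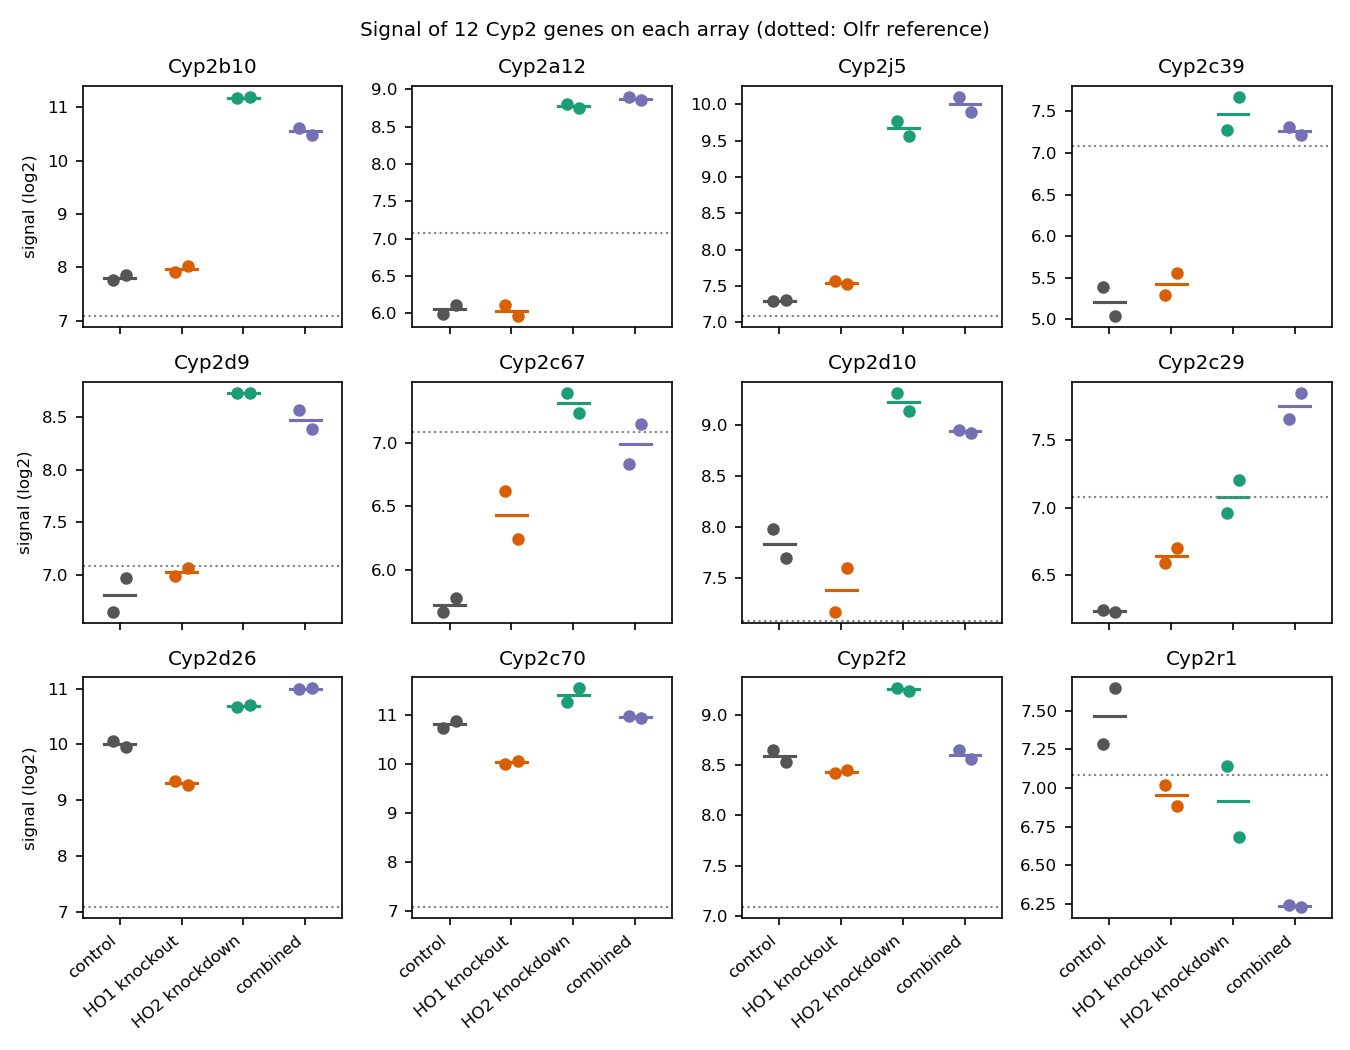
Log2 signals of 12 Cyp2 genes on each of the 8 arrays (points) with the mean of each group (bars); each panel has its own vertical axis, which does not start at 0, and the dotted line is the 95th percentile of olfactory receptor genes (7.08). Cyp2b10, Cyp2a12 and Cyp2j5 are high on all 4 arrays with HO2 shRNA, Cyp2d26 and Cyp2c70 are lowest in HO1 knockout, and Cyp2r1 is lowest in combined arrays.

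Of the 6 Cyp2j genes, 3 rose with HO2 shRNA in HO1+/+ cells. Cyp2j5, an arachidonic acid epoxygenase of liver and kidney, had signals of 7.29 and 7.31 in control, 7.56 and 7.52 in HO1 knockout, 9.77 and 9.57 in HO2 knockdown, and 10.10 and 9.90 in combined arrays. The 4 arrays with HO2 shRNA did not overlap the others. Its change was 2.37 (SE 0.0923, adjusted p = 2.31e-11) in HO1+/+ and 2.46 (adjusted p = 1.74e-11) in HO1-/- cells. Cyp2j6 had 10.61 and 10.65 in control, 10.46 and 10.42 in HO1 knockout, 10.94 and 11.03 in HO2 knockdown, and 10.56 and 10.56 in combined arrays, and was highest in HO2 knockdown. Cyp2j9 was likewise highest in HO2 knockdown, with 7.05 and 7.08 in control, 6.87 and 6.75 in HO1 knockout, 7.48 and 7.47 in HO2 knockdown, and 7.14 and 7.07 in combined arrays. Their changes in HO1+/+ cells were 0.35 and 0.41. Cyp2j11, Cyp2j12 and Cyp2j13 stayed between 4.86 and 5.59 and were called in no comparison.

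The Cyp2c subfamily, whose members epoxidise fatty acids and hydroxylate steroids and retinoids, had 8 of 13 genes higher and 0 lower by limma with HO2 shRNA in HO1+/+ cells (9 and 0 at an unadjusted p under 0.05). Windows of 30 bases around CAAAGT, the core of the HNF4A site, are shown for the 10 Cyp2c genes that hold it, because the windows line up members that rose with close relatives that were not called. Capitals mark the core, sequences run 5′ to 3′ on the strand of the gene, and positions are those of RefSeq on GRCm38.p6; the first 8 genes rose in HO2 knockdown, and Cyp2c50 and Cyp2c66 were not called.
Cyp2c29, chr19:39287028-39287057, plus strand: gtcaatgatgctCAAAGTggagcatgtttt
Cyp2c37, chr19:39992349-39992378, plus strand: tcaagaatattcCAAAGTgcaatcaattga
Cyp2c38, chr19:39463169-39463198, minus strand: tctatcaaggaaCAAAGTttatttgaatga
Cyp2c39, chr19:39510724-39510753, plus strand: ctatcaaagggaCAAAGTctacttgaaaga
Cyp2c65, chr19:39060878-39060907, plus strand: acgatgttggaaCAAAGTccactgggagga
Cyp2c67, chr19:39649150-39649179, minus strand: ttatcattgagaCAAAGTccatttggaagc
Cyp2c68, chr19:39741161-39741190, minus strand: ttatcattgaaaCAAAGTccaattggaaga
Cyp2c70, chr19:40187333-40187362, minus strand: agaggtcaaactCAAAGTccaaactctgtg
Cyp2c50, chr19:40089606-40089635, plus strand: tcaagaatgttcCAAAGTgcaatggattga
Cyp2c66, chr19:39113782-39113811, plus strand: actatgttggaaCAAAGTcccctgcgagga
CAAAGT on either strand lay within 250 bases before the start of 10 of 11 Cyp2c genes with an entry, of Cyp2b9, Cyp2b13, Cyp2d26 and Cyp2j9 among the other Cyp2 genes, and of 12.6% of all windows. The exception was Cyp2c55. Where a gene held several cores, only that nearest the start is shown. Cyp2c29 held 2, Cyp2c37 held 3 and Cyp2c70 held 2. Cyp2c39 had a further annotated start, with a core 114 bases before it that is not shown. Cyp2c65, Cyp2c67, Cyp2c68 and Cyp2c70 held the longer form CAAAGTCCA, which includes the core and was present in 0.384% of all windows. These matches describe the letters of the windows and not bound sites.

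Cyp2c39, known for hydroxylating retinoic acid, had signals of 5.39 and 5.04 in control, 5.30 and 5.56 in HO1 knockout, 7.28 and 7.67 in HO2 knockdown, and 7.32 and 7.21 in combined arrays. It crossed the background reference only on the arrays with HO2 shRNA. The change was 2.26 (SE 0.143, adjusted p = 5.73e-09) in HO1+/+ and 1.84 (adjusted p = 9.09e-08) in HO1-/- cells. Cyp2c67 had 5.67 and 5.78 in control, 6.62 and 6.25 in HO1 knockout, 7.39 and 7.24 in HO2 knockdown, and 6.84 and 7.15 in combined arrays. It was higher with either perturbation alone than in control, by 0.71 (SE 0.133, adjusted p = 0.00162) for HO1 knockout and 1.59 (adjusted p = 1.63e-07) for HO2 knockdown. Its mean exceeded the background reference in HO2 knockdown alone. Cyp2c67 also rose by 0.56 with HO2 shRNA in HO1-/- cells (adjusted p = 0.0054), a call lost without HO1 knockout replicate 2 (0.107) or combined replicate 2 (0.12).

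Cyp2c29, an abundant hepatic epoxygenase, had signals of 6.24 and 6.22 in control, 6.59 and 6.70 in HO1 knockout, 6.96 and 7.20 in HO2 knockdown, and 7.66 and 7.86 in combined arrays. The 4 groups did not overlap, and the order ran from control through HO1 knockout and HO2 knockdown to combined. Cyp2c29 was the only member called higher in HO1-/- cells under both hairpins, by 0.41 (adjusted p = 0.0205) with the scrambled and 0.68 (adjusted p = 0.000247) with the HO2 shRNA. The former call was lost without HO1 knockout replicate 1 (0.0537) or replicate 2 (0.162).

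Cyp2c70, which makes the muricholic acids typical of mouse bile, had signals of 10.75 and 10.88 in control, 10.00 and 10.08 in HO1 knockout, 11.27 and 11.55 in HO2 knockdown, and 10.98 and 10.94 in combined arrays. It moved in opposite directions with the 2 perturbations, falling by 0.77 in HO1 knockout (SE 0.0776, adjusted p = 2.53e-06) and rising by 0.60 in HO2 knockdown (adjusted p = 1.78e-05). The 4 remaining genes that rose in HO2 knockdown were Cyp2c68 (0.81), Cyp2c65 (0.58), Cyp2c38 (0.42) and Cyp2c37 (0.41). Cyp2c68 had 5.003 and 5.032 in control, 5.22 and 5.15 in HO1 knockout, 5.86 and 5.79 in HO2 knockdown, and 5.54 and 5.52 in combined arrays. Its groups did not overlap, and HO2 knockdown was the highest. Cyp2c65 had 4.80 and 4.59 in control, 4.71 and 4.80 in HO1 knockout, 5.22 and 5.33 in HO2 knockdown, and 4.79 and 4.92 in combined arrays, so that only HO2 knockdown lay apart from the rest. All of Cyp2c38, Cyp2c65 and Cyp2c68 stayed below the background reference on every array. For Cyp2c37 the call rested on control replicate 2, the lowest of its 8 arrays at 6.98: without that array the change was 0.17 (adjusted p = 0.241), and it was also lost without HO2 knockdown replicate 1 (0.141) or replicate 2 (0.0912). Cyp2c50, Cyp2c54 and Cyp2c66 were called in no comparison, and Cyp2c23 and Cyp2c55 were not called here, with changes of 0.21 and 0.25.

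In the Cyp2d subfamily 6 of 10 genes rose with HO2 shRNA in HO1+/+ cells by limma and 0 fell (6 and 0 at an unadjusted p under 0.05), and the 2 brightest were among those that rose. Cyp2d9, a steroid hydroxylase known as male-predominant, had signals of 6.65 and 6.96 in control, 6.99 and 7.07 in HO1 knockout, 8.73 and 8.73 in HO2 knockdown, and 8.57 and 8.38 in combined arrays. Its arrays with HO2 shRNA lay above the background reference and those without it below. Cyp2d9 rose by 1.93 (SE 0.111, adjusted p = 2.12e-09) in HO1+/+ and 1.45 (adjusted p = 7.97e-08) in HO1-/- cells. Cyp2d10 had 7.98 and 7.70 in control, 7.17 and 7.60 in HO1 knockout, 9.32 and 9.13 in HO2 knockdown, and 8.95 and 8.92 in combined arrays. It rose by 1.39 (adjusted p = 4.36e-07) and 1.55 (adjusted p = 1.67e-07) with HO2 shRNA in the 2 genotypes.

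Cyp2d26 had signals of 10.06 and 9.96 in control, 9.34 and 9.27 in HO1 knockout, 10.67 and 10.71 in HO2 knockdown, and 10.99 and 11.01 in combined arrays. HO1 knockout arrays were the lowest and combined arrays the highest, with no overlap between any groups. Cyp2d26 was the only member called in opposite directions between the genotypes, lower by 0.70 under the scrambled shRNA (SE 0.0601, adjusted p = 3.68e-07) and higher by 0.31 under HO2 shRNA (adjusted p = 0.000992). Of the other Cyp2d genes, Cyp2d22, Cyp2d11 and Cyp2d40 rose in HO2 knockdown by 0.76, 0.57 and 0.33, the last not without control replicate 2 (adjusted p = 0.161) or without either HO2 knockdown array (0.134 and 0.104). Cyp2d12 and Cyp2d34 were called in no comparison. Cyp2d13, an annotated pseudogene, was called higher in combined against control arrays alone (0.31, adjusted p = 0.0327), and not without control replicate 1 (0.115), combined replicate 1 (0.137) or combined replicate 2 (0.151).

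Among the subfamilies with a single member, Cyp2s1, Cyp2f2 and Cyp2e1 rose and 5 fell with HO2 shRNA in HO1+/+ cells, while Cyp2g1 was not called. Cyp2s1, a P450 of epithelia outside the liver, had 7.76 and 7.42 in control, 7.64 and 7.70 in HO1 knockout, 8.31 and 8.34 in HO2 knockdown, and 8.36 and 8.12 in combined arrays, so that all arrays with HO2 shRNA were above the rest (change 0.74, adjusted p = 0.000101). Cyp2f2, which activates naphthalene in lung and liver, had 8.66 and 8.53 in control, 8.43 and 8.45 in HO1 knockout, 9.27 and 9.25 in HO2 knockdown, and 8.65 and 8.56 in combined arrays. The HO2 knockdown arrays of Cyp2f2 were the highest (change 0.66, SE 0.0797, adjusted p = 7.69e-06), and the HO1 knockout arrays lay below control without a call (-0.16, adjusted p = 0.259). Cyp2e1 had 6.52 and 6.38 in control, 6.15 and 6.42 in HO1 knockout, 6.91 and 6.77 in HO2 knockdown, and 6.98 and 6.90 in combined arrays. Its change of 0.39 in HO1+/+ cells (adjusted p = 0.014) was not called without HO2 knockdown replicate 1 (0.143), and in HO1-/- cells it was 0.66 (adjusted p = 0.000377).

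Cyp2r1, a vitamin D 25-hydroxylase, had signals of 7.29 and 7.65 in control, 7.02 and 6.88 in HO1 knockout, 7.14 and 6.69 in HO2 knockdown, and 6.25 and 6.23 in combined arrays. Combined arrays were the lowest, and control arrays lay above all others. Only the control mean (7.47) exceeded the background reference. Means of HO1 knockout (6.95), HO2 knockdown (6.91) and combined arrays (6.24) lay below it. Cyp2r1 was the only member called lower in all 5 comparisons between groups, and it was 2.34-fold lower in combined than in control arrays (log2 fold change -1.23, SE 0.143, adjusted p = 5.26e-06). The single steps were less firm. In HO2 knockdown the fall by 0.55 was lost without control replicate 2 (adjusted p = 0.0524) or HO2 knockdown replicate 2 (0.147), and in HO1 knockout the fall by 0.51 was lost without control replicate 2 (0.172) or either HO1 knockout array (0.0669 and 0.183). With HO2 shRNA in HO1-/- cells the fall was 0.72 (adjusted p = 0.00136).

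The other 4 falls in HO1+/+ cells were small. Cyp2w1, known from fetal and tumour tissue of the colon, had 7.56 and 7.44 in control, 7.32 and 7.45 in HO1 knockout, 7.16 and 7.10 in HO2 knockdown, and 7.53 and 7.44 in combined arrays. It was lowest in HO2 knockdown (change -0.37, adjusted p = 0.00867, and 0.0708 without HO2 knockdown replicate 2). Cyp2u1, a fatty acid hydroxylase, had 8.47 and 8.51 in control, 8.04 and 8.12 in HO1 knockout, 8.19 and 8.31 in HO2 knockdown, and 7.92 and 7.85 in combined arrays. Every other array of Cyp2u1 was below the control arrays. Its fall by 0.24 in HO2 knockdown (adjusted p = 0.0469) was lost without any 1 of the 8 arrays, the adjusted p reaching 0.287 without HO2 knockdown replicate 1. Cyp2ab1 had 6.81 and 6.72 in control, 6.45 and 6.70 in HO1 knockout, 6.47 and 6.43 in HO2 knockdown, and 6.57 and 6.61 in combined arrays. Cyp2t4 had 6.34 and 6.16 in control, 5.93 and 6.12 in HO1 knockout, 5.90 and 5.99 in HO2 knockdown, and 6.16 and 6.11 in combined arrays. Both were below the background reference throughout, and both calls (changes -0.31 and -0.31) were lost, at the adjusted p given for Cyp2ab1 and Cyp2t4 in turn, without control replicate 1 (0.102 and 0.173), HO2 knockdown replicate 1 (0.103 and 0.202), HO2 knockdown replicate 2 (0.147 and 0.0728) or either combined array (0.0522 and 0.0529). Cyp2g1, a P450 of olfactory mucosa, had 6.15 and 6.24 in control, 6.19 and 6.03 in HO1 knockout, 5.98 and 6.00 in HO2 knockdown, and 6.27 and 6.14 in combined arrays. Both HO2 knockdown arrays of Cyp2g1 were the lowest, and the change was not called (-0.20, adjusted p = 0.13).

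The same hairpin was tested on other arrays in HO1-/- cells, by combined against HO1 knockout. There 20 Cyp2 genes were higher and 1 was lower, while 10.2% of all genes were called higher and 12.8% lower. The median was 0.17 over the members and 0.01 over all genes. By subfamily 7 of 10 Cyp2d, 7 of 13 Cyp2c, 2 of 6 Cyp2j, 1 of 5 Cyp2b and 1 of 2 Cyp2a genes rose, with Cyp2s1 and Cyp2e1, and Cyp2r1 fell. The largest were Cyp2a12 (7.16-fold), Cyp2b10 (6.02-fold), Cyp2j5 (5.49-fold), Cyp2c39 (3.57-fold) and Cyp2d26 (3.24-fold). Hepatocyte markers were again higher (7 of 9, median 0.47) and markers of dividing cells lower (7 of 7, median -0.71). Macrophage markers were higher in 4 of 12 and lower in 1 (median 0.24), endothelial markers were higher in 5 of 8, and stellate cell and fibroblast markers were higher in 7 of 10 and lower in 1. The part of these lists in the Cyp2 changes was not tested.

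These 2 comparisons share no array, but the fit over all 8 arrays gives both the same estimate of each gene's spread. Their calls are thus not independent. Called higher in both were 18 members, which is 81.8% of the 22 in HO1+/+ and 90.0% of the 20 in HO1-/- cells. Cyp2r1 was lower in both, 0 members were called in opposite directions, and 15 were called in neither. Not all of the 18 shared calls held under each of 14 alternative fits (other processing, or 1 array left out). In HO1-/- cells the call of Cyp2j9 was lost in 8, and those of Cyp2c67, Cyp2c68 and Cyp2d40 in 2 each. In HO1+/+ cells that of Cyp2d40 was lost in 3 and that of Cyp2e1 in 1. Across the 45 genes, which are not independent and share array background, Pearson's r of the changes was 0.909 and Spearman's rho 0.814, given as a description. Neither the overlap nor these correlations were computed over all genes, so whether the family differs from other genes in this was not tested. Higher in HO1+/+ cells alone were Cyp2c37, Cyp2c65, Cyp2f2 and Cyp2j6, and in HO1-/- cells alone Cyp2c55 and Cyp2d37-ps. The last 2 calls did not hold without combined replicate 1 (Cyp2c55, adjusted p = 0.102), HO1 knockout replicate 1 (Cyp2c55, 0.113) or combined replicate 2 (Cyp2d37-ps, 0.057).

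**Figure D2:**
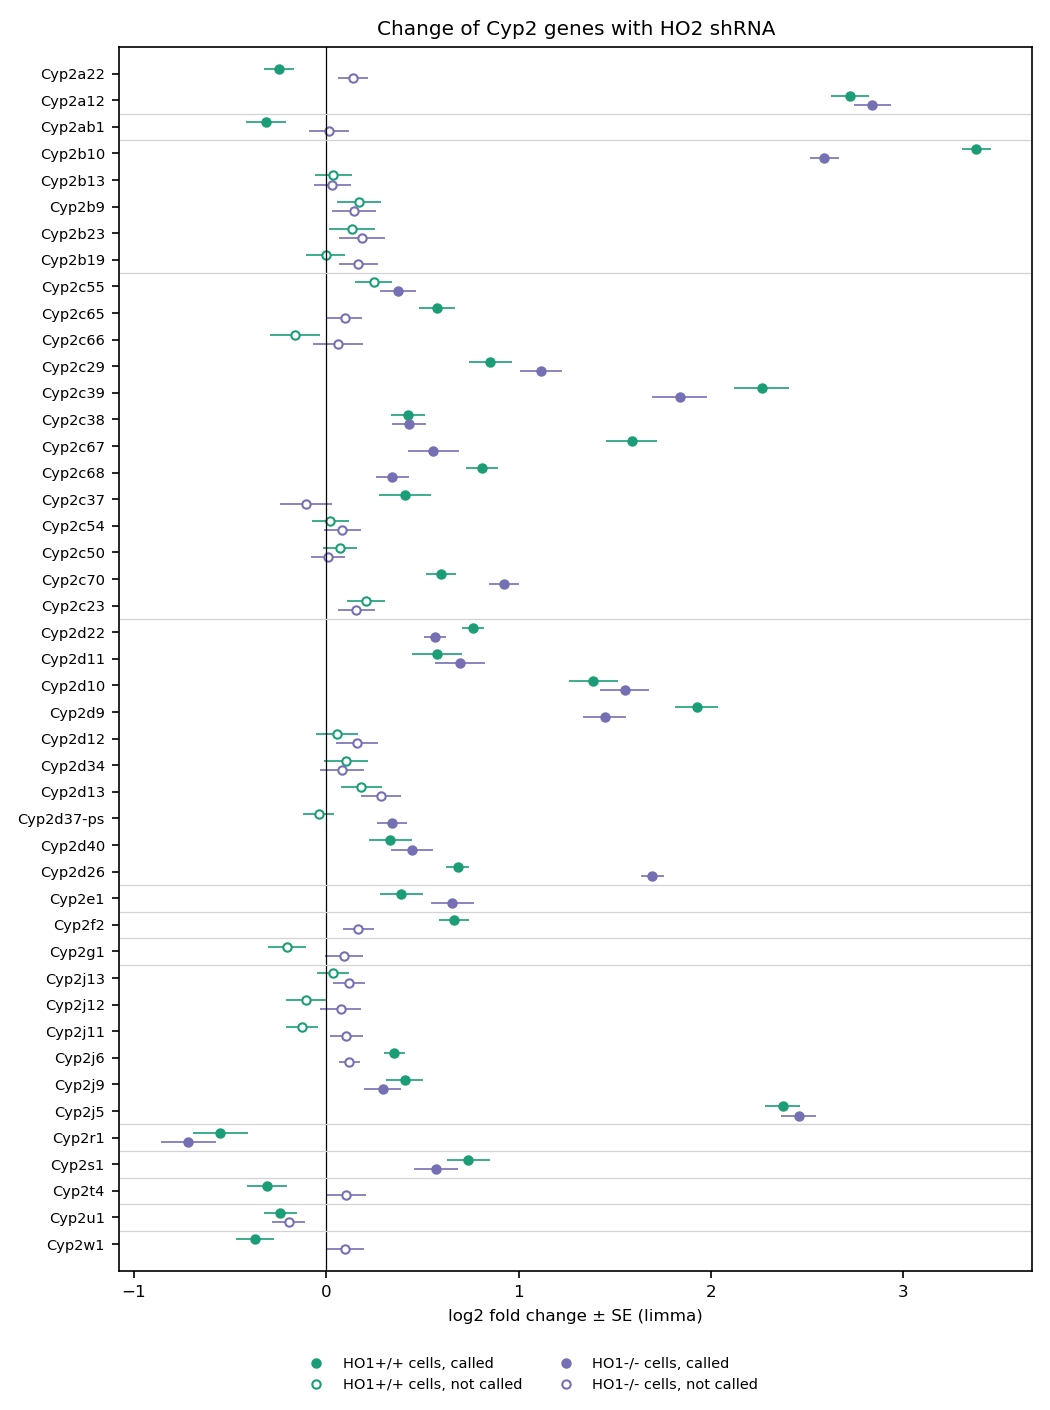
Log2 fold change with its SE (limma) for each of the 45 Cyp2 genes with HO2 shRNA in HO1+/+ cells (green) and in HO1-/- cells (purple); filled points are called at an adjusted p under 0.05, and grey lines part the subfamilies. Increases of over 2 on the log2 scale are seen for Cyp2b10, Cyp2a12 and Cyp2j5 in both genotypes and for Cyp2c39 in HO1+/+ cells.

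Whether the change with HO2 shRNA differs between the genotypes was tested by the interaction, the change in HO1-/- minus that in HO1+/+ cells. It was called for 4 members upward and 5 downward, while 4.67% of all genes were called upward and 7.57% downward. The share of all genes called in either direction was 12.2%, but 23.8% without control replicate 2, 7.65% without HO1 knockout replicate 1, 6.53% without HO2 knockdown replicate 1, and 6.85% and 6.77% without combined replicate 1 and 2. All 7 markers of dividing cells were called upward, 6 of 9 hepatocyte markers downward, and 5 of 12 macrophage markers upward and 1 downward, and their part in the Cyp2 values was not tested. Cyp2d26 (1.01, SE 0.0849, adjusted p = 2.24e-06), Cyp2b10 (-0.79, SE 0.106, adjusted p = 0.000188) and Cyp2c67 (-1.03, SE 0.188, adjusted p = 0.00216) were called under every alternative tried in which they were tested. Cyp2d26 rose more in HO1-/- cells, from a lower level, and Cyp2b10 and Cyp2c67 rose less. Cyp2c67 had means below the background reference in all groups but HO2 knockdown. Cyp2f2 was called as well (-0.50, adjusted p = 0.0095, and 0.0582 without combined replicate 2), having risen in HO1+/+ cells and shown 0.17 (adjusted p = 0.164) in HO1-/- cells. For Cyp2a12 (0.12), Cyp2j5 (0.08), Cyp2d10 (0.16), Cyp2c39 (-0.43) and Cyp2d9 (-0.48) the interaction was not called, which does not show that they changed alike.

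**Figure D3:**
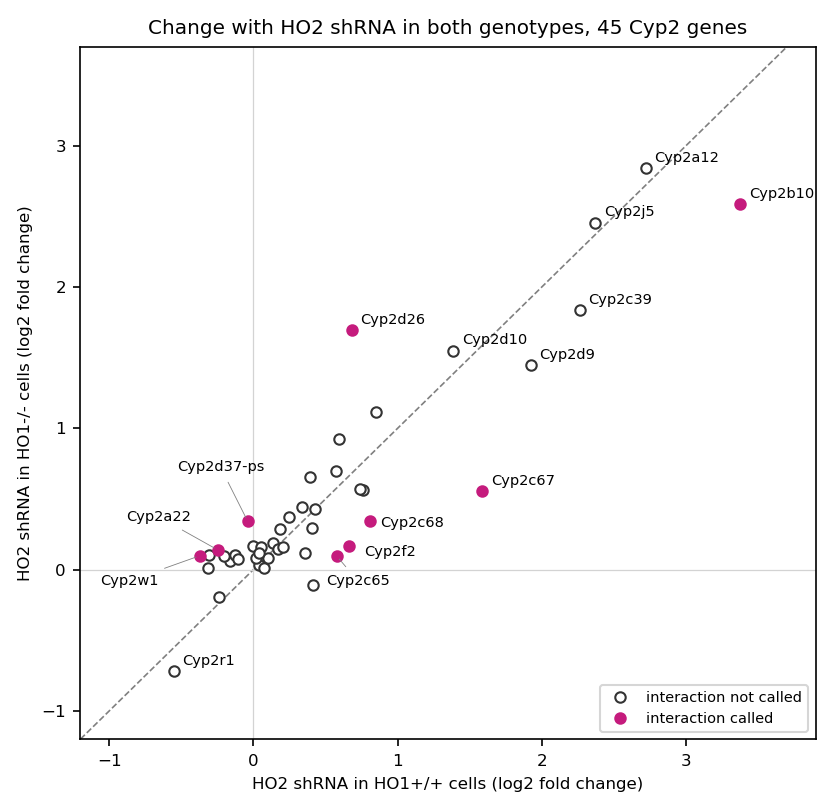
Log2 fold change with HO2 shRNA of the 45 Cyp2 genes in HO1+/+ (horizontal) and HO1-/- cells (vertical); the dashed line marks equal change, and filled points are the 9 genes with a called interaction. Cyp2d26 lies above the line, and Cyp2b10, Cyp2c67, Cyp2c68, Cyp2f2 and Cyp2c65 lie below it.

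The HO1 genotypes were compared under the scrambled shRNA first. Of 45 members 2 were higher and 8 lower in HO1 knockout than in control arrays, while 5.62% of all genes were called higher and 7.20% lower. The median was -0.06 over the members and -0.04 over all genes, and 0 members changed by 2-fold or more. The falls were those of Cyp2c70 (-0.77), Cyp2d26 (-0.70), Cyp2r1 (-0.51), Cyp2d10 (-0.45), Cyp2u1 (-0.41), Cyp2a22 (-0.36), Cyp2d37-ps (-0.34) and Cyp2j6 (-0.19), and the increases those of Cyp2c67 (0.71) and Cyp2c29 (0.41). Without HO1 knockout replicate 1 the count of 10 called members was 5. Cyp2d10 was then at an adjusted p of 0.345 and Cyp2u1 at 0.0583, and Cyp2d37-ps was at 0.0666 without HO1 knockout replicate 2. For Cyp2j6 the call was lost without control replicate 2 (0.131) or either HO1 knockout array (0.083 and 0.166), and for Cyp2d10 also without control replicate 1 (0.146). Hepatocyte markers were higher in 7 of 9 and lower in 1 (median 0.37), and macrophage markers were higher in 7 of 12 and lower in 1 (median 2.17), among the higher ones Lyz2 (8.62 and 8.81 in control, 13.26 and 13.25 in HO1 knockout). Of 10 stellate cell and fibroblast markers, 0 were higher and 6 lower by limma (0 and 7 at an unadjusted p under 0.05; median -0.34), while 2 of 8 endothelial markers and 1 of 7 markers of dividing cells were higher. The part of these cells in the Cyp2 differences was not tested.

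Under HO2 shRNA, 4 Cyp2 genes were higher and 11 lower in combined than in HO2 knockdown arrays, while 13.0% of all genes were called higher and 21.0% lower. The share of all genes called in either direction was 34.0%, but 19.2% without HO2 knockdown replicate 1, and 22.5% and 20.4% without combined replicate 1 and 2. Medians were 0.02 over the members and 0.02 over all genes. The lower genes were Cyp2r1 (-0.68), Cyp2f2 (-0.65), Cyp2b10 (-0.63), Cyp2c70 (-0.45), Cyp2j6 (-0.42), Cyp2c65 (-0.42), Cyp2j9 (-0.37), Cyp2u1 (-0.37), Cyp2d22 (-0.32), Cyp2c68 (-0.30) and Cyp2c23 (-0.29). Cyp2c29 (0.68), Cyp2w1 (0.36), Cyp2j5 (0.33) and Cyp2d26 (0.31) were higher. The calls of Cyp2r1 (0.057), Cyp2c23 (0.273), Cyp2c68 (0.11), Cyp2j9 (0.063) and Cyp2w1 (0.0512) were lost without HO2 knockdown replicate 1, at the adjusted p given for each. Those of Cyp2j5 (0.154), Cyp2u1 (0.0569) and Cyp2w1 (0.0778) were lost without HO2 knockdown replicate 2. Without combined replicate 1 those of Cyp2j5 (0.186), Cyp2c23 (0.0792), Cyp2c68 (0.0592) and Cyp2w1 (0.107) were lost, and without combined replicate 2 those of Cyp2c23 (0.186), Cyp2c68 (0.0854), Cyp2j9 (0.0833) and Cyp2u1 (0.0547). Macrophage markers were higher in 8 of 12 (median 2.54) and hepatocyte markers in 3 of 9, with 2 lower. Markers of dividing cells were higher in 7 of 7 (median 0.60) and endothelial ones in 5 of 8, and stellate cell and fibroblast markers were higher in 2 of 10 and lower in 5. The part of these lists in the Cyp2 values was not tested.

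Cyp2c70, Cyp2j6, Cyp2r1 and Cyp2u1 were lower on the arrays labelled HO1-/- under both hairpins, which is 50.0% of the 8 and 36.4% of the 11 lower genes. These comparisons share no array but again the same estimate of each gene's spread, and 26 members were called in neither. Pearson's r of the 2 sets of differences was 0.196 and Spearman's rho 0.194 over the 45 genes, given as a description. The overlap and correlations over all genes were not computed here either.

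**Figure D4:**
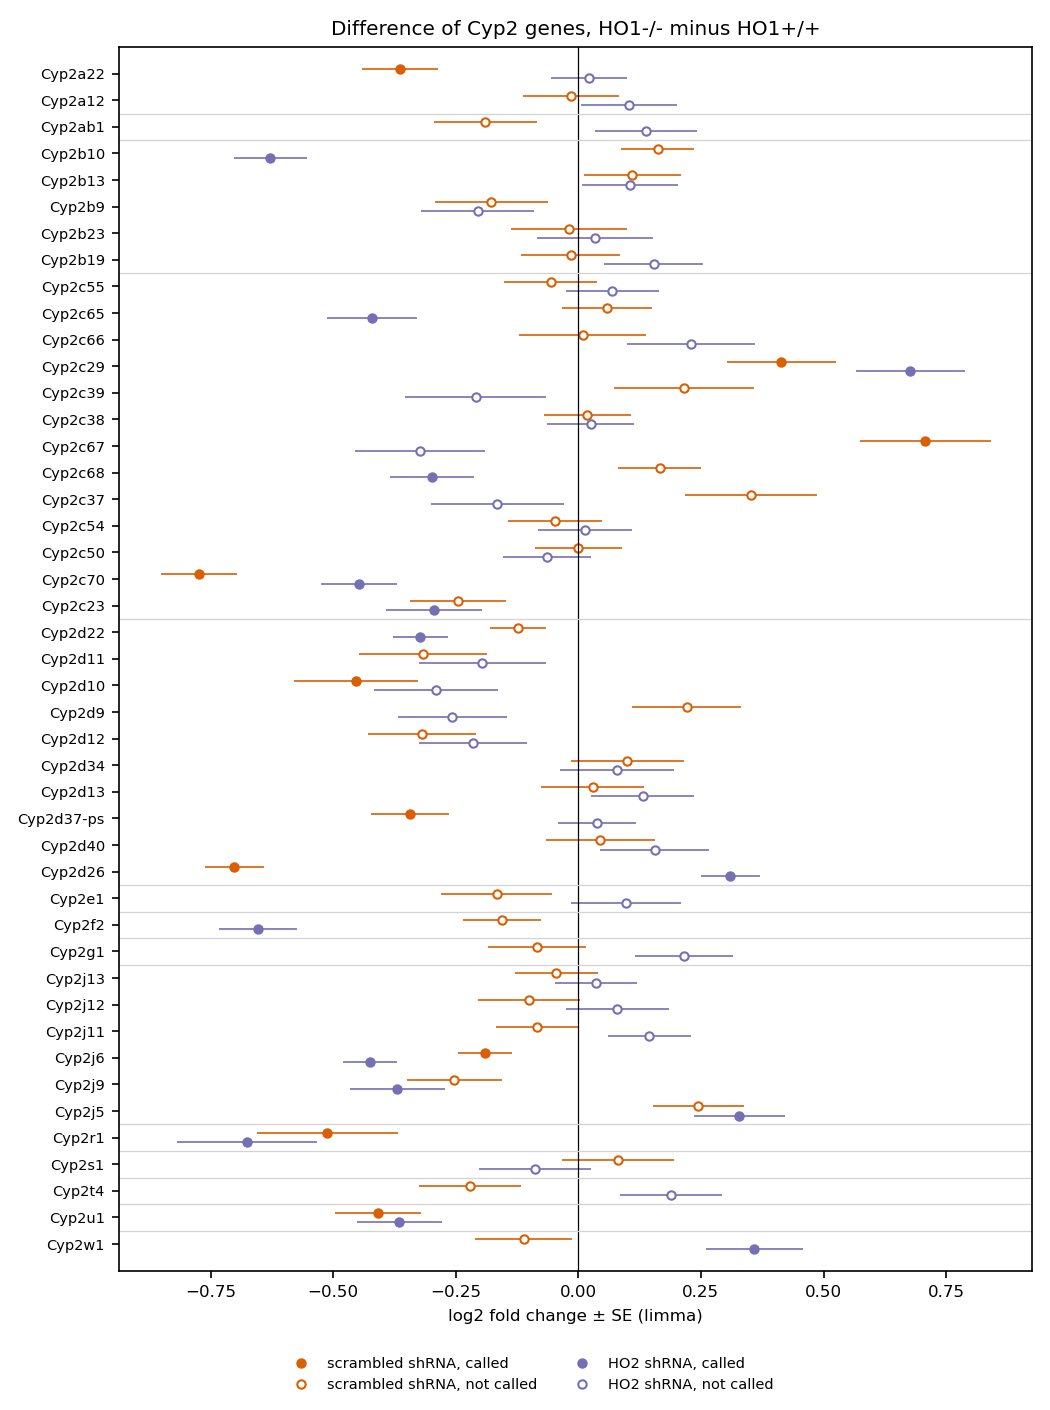
Log2 difference with its SE (limma) of each of the 45 Cyp2 genes between HO1-/- and HO1+/+ cells under scrambled shRNA (orange) and under HO2 shRNA (purple); filled points are called at an adjusted p under 0.05, and grey lines part the subfamilies. The difference furthest from 0 is that of Cyp2c70 under scrambled shRNA (-0.77), and Cyp2d26 is called on opposite sides of 0 under the 2 hairpins.

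In combined against control arrays 18 Cyp2 genes were higher and 3 lower, while 11.6% of all genes were called higher and 18.3% lower, with medians of 0.15 and -0.02. This comparison shares its arrays with the ones above. Cyp2a12 (7.08-fold), Cyp2b10 (6.73-fold), Cyp2j5 (6.50-fold), Cyp2c39 (4.15-fold), Cyp2d9 (3.18-fold), Cyp2c29 (2.89-fold), Cyp2c67 (2.40-fold) and Cyp2d10 (2.14-fold) were higher by 2-fold or more. Cyp2r1, Cyp2u1 (-0.60) and Cyp2a22 (-0.23) were lower, the last not without control replicate 1 (adjusted p = 0.225), either HO2 knockdown array (0.0552 and 0.0553) or either combined array (0.187 and 0.0941). Hepatocyte markers were higher in 8 of 9 and lower in 1 (median 1.07), macrophage markers higher in 7 of 12 (median 2.51), endothelial markers higher in 6 of 8 (median 0.52), and markers of dividing cells lower in 7 of 7 (median -0.85). Stellate cell and fibroblast markers were higher in 2 of 10 and lower in 2, and the part of these lists in the Cyp2 changes was not tested.

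Of the 6 measured Cyp2 genes known as higher in female mouse liver, Cyp2b10, Cyp2c38 and Cyp2c39 rose with HO2 shRNA in both genotypes and 0 fell. Of the 3 known as higher in males, Cyp2d9 and Cyp2f2 rose and Cyp2u1 fell in HO1+/+ cells, and Cyp2d9 rose in HO1-/- cells. Genes of both kinds were thus among those that rose in these male cells. Along the liver lobule, 6 of 7 measured periportal genes outside the Cyp2 family rose in HO2 knockdown (median 1.58), while of 9 pericentral ones 3 rose and 3 fell (median -0.14). In HO1 knockout against control, limma gave 5 of 7 periportal genes higher and 0 lower at an unadjusted p under 0.05. Of the 9 pericentral genes it gave 2 higher and 2 lower.

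Other genes of the P450 system were counted from lists. Of 21 regulators of hepatic Cyp2 genes, 16 rose and 1 (Cebpb, -0.32) fell in HO2 knockdown, with a median of 0.58. Nr1i2, the gene for PXR, had signals of 8.51 and 8.75 in control, 8.86 and 8.67 in HO1 knockout, 10.35 and 10.16 in HO2 knockdown, and 9.59 and 9.51 in combined arrays. Combined arrays lay between HO2 knockdown and the groups without HO2 shRNA. Its change was 1.62 (adjusted p = 2.22e-09) in HO1+/+ and 0.78 (adjusted p = 1.08e-05) in HO1-/- cells, with a called interaction of -0.84 (adjusted p = 0.000701). Nr1i3, the gene for CAR, rose by 0.43 and 0.50, without a called interaction (0.07, adjusted p = 0.817). Means of Nr1i3 were 6.80 in control and 6.68 in HO1 knockout, below the background reference. They were 7.23 in HO2 knockdown and 7.18 in combined arrays. Nr0b2, which encodes the corepressor SHP, rose by 2.20 and 1.62, the liver factor gene Onecut1 by 1.51 and 1.10, and Hnf4a by 0.75 and 0.46. In combined against HO1 knockout 13 regulators rose and 2 fell, in HO1 knockout against control 4 rose and 1 fell, and in combined against HO2 knockdown 3 were higher and 9 lower.

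Of P450 genes outside the family, 7 of 8 measured Cyp1 and Cyp3 genes rose in HO2 knockdown and 6 of 8 in combined against HO1 knockout. Cyp3a11, a PXR target and a major hepatic P450, rose by 3.48 (adjusted p = 3.92e-11) and 3.14 (adjusted p = 1.75e-10), and Cyp1a2 by 2.00 and 1.10. Cyp1b1 fell by 1.78 and 1.79. Means of Cyp3a11 without HO2 shRNA were 5.50 in control and 6.00 in HO1 knockout, below the background reference. Cyp3a44 lay below it in these groups as well, and Cyp3a16 in every group. Of 9 other targets of CAR and PXR, 7 rose and 1 fell in HO2 knockdown, and 4 rose in combined against HO1 knockout, with Sult1d1 at 1.63 and 1.59.

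Genes for P450 partners and heme supply were counted in the same way. Of 5 measured partners, 3 rose in HO2 knockdown, with Cyb5r3 at 0.28, Cyb5a, the gene for cytochrome b5, at 0.24 and Pgrmc1 at 0.20, and in HO1-/- cells 0 rose and 1 fell by limma (1 and 2 at an unadjusted p under 0.05). Por, the gene for P450 oxidoreductase itself, was not analysed here. Of 7 genes of heme synthesis, Fech (0.69), Alas1 (0.37) and Ppox (0.24) rose and Alad (-0.57) and Cpox (-0.38) fell in HO2 knockdown, while 0 of 7 were called by limma with HO2 shRNA in HO1-/- cells (1 higher and 1 lower at an unadjusted p under 0.05). Alas1 encodes the first and rate-limiting enzyme of the pathway and Fech the enzyme that inserts the iron. Inflammation, which is known to lower hepatic P450 expression, was followed by 8 genes: 0 rose and 3 fell in HO2 knockdown, 4 rose and 2 fell in HO1 knockout, and 0 rose and 7 fell in combined against HO1 knockout, with Saa1 at -0.03, 1.42 and -1.60. At an unadjusted p under 0.05, limma gave 0 higher and 5 lower in HO2 knockdown and 0 higher and 7 lower in combined against HO1 knockout. Saa1 does not stand for the list, since its mean lay below the background reference in every group. Nos2 was brighter and had its highest mean in control. Its means were 10.17 in control, 9.29 in HO1 knockout, 7.71 in HO2 knockdown and 7.27 in combined arrays.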

How the data were processed

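Per the submitters' processing notes, the authors made the deposited log2 signals with RMA (affy, R 2.15.0); chip definition and genome build: not given in the sources used here. Of 34760 probe sets, 21640 with 1 gene symbol were used, and 1321 with several and 11799 with none were left out; the brightest was kept for 954 genes with several. Signals were fitted with limma 3.58.1 (R 4.3.3) as 4 group means over 8 arrays, with 4 residual and 11.2 prior degrees of freedom and a mean-variance trend. Tests were two-sided and adjusted by Benjamini-Hochberg over 19937 genes. The number of arrays limits precision, and dim probe sets understate fold changes.

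Members and lists were chosen with earlier results of these data known. Given for every array are the largest called change of each subfamily and the 8 largest called changes of each comparison; of each list, the 4 members with the smallest p in a comparison. Cebpb, Nr1i3 and the markers Alb and Lyz2 were named outside this rule, after their values were seen. Of 45 members 36 had a promoter entry. Alternatives changed the variance model, weights, normalization, dim genes and probe sets, used the replicate number as a block, or left out 1 array. Replicate numbers did not pair the samples (correlations of deviations -0.26 to 0.12).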

Additional observations from a re-analysis of the deposited data

Results flagged for a closer look

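The change with HO2 shRNA differed between HO1+/+ and HO1-/- cells for 9 of 45 Cyp2 genes by the interaction term (limma, adjusted over all genes), here as the change in HO1-/- minus that in HO1+/+ cells on the log2 scale. The signed difference was positive for Cyp2d26 (1.01, adjusted p = 2.24e-06), Cyp2w1 (0.47, adjusted p = 0.04), Cyp2a22 (0.39, adjusted p = 0.033) and Cyp2d37-ps (0.38, adjusted p = 0.0385). It was negative for Cyp2c67 (-1.03, adjusted p = 0.00216), Cyp2b10 (-0.79, adjusted p = 0.000188), Cyp2f2 (-0.50, adjusted p = 0.0095), Cyp2c65 (-0.48, adjusted p = 0.0253) and Cyp2c68 (-0.46, adjusted p = 0.0199). Cyp2w1 and Cyp2a22 had fallen in HO1+/+ cells (-0.37 and -0.25) and were not called in HO1-/- cells (0.10 and 0.14). Cyp2a22, Cyp2c65 and Cyp2c68 stayed below the olfactory receptor reference on every array. The mean of Cyp2c67 exceeded it in HO2 knockdown alone. Leaving out single arrays ended the calls of Cyp2w1, Cyp2a22, Cyp2d37-ps, Cyp2c65 and Cyp2c68 in several ways, with adjusted p up to 0.163 for Cyp2w1 (without combined replicate 1), 0.117 for Cyp2a22 (without combined replicate 2), 0.142 for Cyp2d37-ps (without combined replicate 2), 0.119 for Cyp2c65 (without combined replicate 1) and 0.0894 for Cyp2c68 (without HO2 knockdown replicate 1). Hmox2 itself had a called interaction of 0.84 (adjusted p = 3.86e-05), the hairpin having lowered it by 3.14 in HO1+/+ and 2.30 in HO1-/- cells.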

How the results depend on the processing

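No Cyp2 value that was called changed its sign under any alternative. Of the calls in HO2 knockdown against control, HO1 knockout against control, combined against HO1 knockout, combined against HO2 knockdown, combined against control and the interaction, in this order, 19 of 28, 4 of 10, 15 of 21, 8 of 15, 16 of 21 and 3 of 9 held under every alternative. With genes above the median of all genes only, 10 of the 45 members were tested, and 9, 6, 7, 8, 6 and 6 were called. Of all 9968 genes in that setting, 54.5%, 23.5%, 43.1%, 53.8%, 52.3% and 24.6% were called, so these counts are not comparable with the shares of the main fit. Leaving out 1 array gave 20 to 27, 5 to 11, 17 to 22, 11 to 18, 16 to 21 and 4 to 12 called members. The lowest count for HO1 knockout came without HO1 knockout replicate 1. For the interaction it was 5 without HO1 knockout replicate 1, HO1 knockout replicate 2 or HO2 knockdown replicate 1, and 4 without combined replicate 1 or combined replicate 2. The replicate number as a block gave 27, 10, 20, 15, 21 and 9, ending the calls of Cyp2u1 (HO2 knockdown, adjusted p = 0.0633), Cyp2j9 (combined against HO1 knockout, 0.0577) and Cyp2w1 (interaction, 0.0565); the numbers did not pair the samples. Higher and lower calls in HO2 knockdown were 25 and 1 after a further quantile normalization, and 23 and 2 with array medians centred, against 22 and 6. In combined against HO2 knockdown they were 3 and 15, and 4 and 14, against 4 and 11, and for the interaction 4 and 7, and 3 and 7, against 4 and 5. The further quantile normalization ended the falls in HO2 knockdown of Cyp2ab1 (adjusted p = 0.113), Cyp2t4 (0.0893), Cyp2r1 (0.0558), Cyp2u1 (0.0556) and Cyp2a22 (0.0545). Centred medians ended those of Cyp2u1 (0.107), Cyp2t4 (0.0614), Cyp2ab1 (0.0611) and Cyp2a22 (0.0572). Signals near background limit what can be seen of the 21 members below the olfactory receptor reference.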
